A study of Homo sapiens with 6 samples.

Results

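The genes that encode translation initiation factors (eIF) and elongation factors (eEF) were examined in U2OS cells transfected 48 h earlier with mimics of miR-542-3p or with negative control mimics. U2OS is an established human osteosarcoma line, and mimics are synthetic duplexes that supply a cell with a mature microRNA. Each group had 3 Illumina bead arrays, numbered 1 to 3, and both groups were transfected, so the control carries the transfection but not the microRNA. The comparison asks which of these transcripts differ when the microRNA is raised. Members were all genes with a symbol starting EIF1 to EIF6, EEF1 or EEF2, without the eIF2 kinases and without pseudogenes, of which 1 was left out. This gave 62 genes of the 20046 with a probe. Of these, 56 were tested among 10734 genes, having a probe detected (p under 0.05) on 3 or more of the 6 arrays. Each was represented by its brightest passing probe.

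Initiation begins when eIF2, bound to GTP, brings the initiator methionyl-tRNA to the small ribosomal subunit, while eIF1, eIF1A, eIF3 and eIF5 help to find the start codon. The guanine exchange factor eIF2B recharges eIF2 with GTP, and the integrated stress response acts by phosphorylating eIF2 and so blocking eIF2B. The eIF4 factors bring the ribosome to the capped mRNA: eIF4E binds the cap, eIF4G is the scaffold, eIF4A unwinds RNA, and the eIF4E-binding proteins, which mTORC1 controls, compete with eIF4G. In elongation eEF1A delivers aminoacyl-tRNA, the eEF1B subunits recharge it, and eEF2 moves the ribosome along the mRNA until its kinase eEF2K inactivates it.

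Arrays had median signals between 132.2 and 151.4, and each detected between 17848 and 18652 of its 47323 probes. Separate cultures are not stated in the labels, and the p-values therefore cover no more than the variation among these 6 samples, possibly technical. Of 8 mesenchymal and osteoblast lineage markers, 7 passed the filter, and they did not move together. VIM was at 14.27 (control mean) and 14.20 (mimic mean) on the log2 scale. CDH2 and RUNX2 rose by 1.13 and 0.97, and SPARC and TNC fell by 0.48 and 0.87 (limma, adjusted p under 0.05 each). VIM, COL1A1 and ALPL did not pass that threshold. The markers' summed signal, which mostly follows VIM as the brightest, was 24360 to 28260 in control and 24870 to 25570 in mimic arrays. Among markers of other cell types, 1 of 4 epithelial (EPCAM), 1 of 3 endothelial (VWF) and none of the 3 leukocyte genes with a probe passed. Summed epithelial signal was 283.7 to 320.6 in control and 148.9 to 208.7 in mimic arrays, and summed endothelial signal was 101.9 to 151.4 and 78.51 to 102.6. Summed leukocyte signal, from 92.76 to 107.9 and from 96.48 to 119.7, was that of undetected probes. EPCAM fell by 1.32 on the log2 scale (limma adjusted p = 0.0022), and VWF was detected on all control and no mimic arrays. The samples are of a single cell line, so these markers are not read as counts of other cell types. The part of these markers in the results below was not tested. Whether fewer cells carried such RNA or each carried less cannot be told apart in bulk samples.

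Most translation factor genes stayed below the threshold. After background correction, the falls of greatest size were those of the eIF2 subunit genes EIF2S2 and EIF2S3. Left uncorrected, the changes were -1.09 for EIF2S3 and -0.83 for both EIF2S2 and EEF1A2. With the mimic, 8 of the 56 members were lower and 3 were higher (limma, adjusted p under 0.05 over all rows), and 45 did not pass. That is 19.6% of members called, beside 26.4% of all genes tested, of which 13.7% were lower and 12.7% higher. The members' share was below that of all genes under 17 of 20 alternatives and above it under 3, at most 35.7% against 32.4% (eBayes with trend and robust), so the order of the shares depends on the setting. The members' median change, the log2 difference of mimic minus control, was 0.01, against 0.02 over all genes. Their interquartile range ran from -0.25 to 0.16, against -0.28 to 0.29 over all genes. The arrays of the groups did not overlap for 24 members (42.9%, against 45% of all genes), with mimic arrays below in 15 and above in 9.

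**Figure D1:**
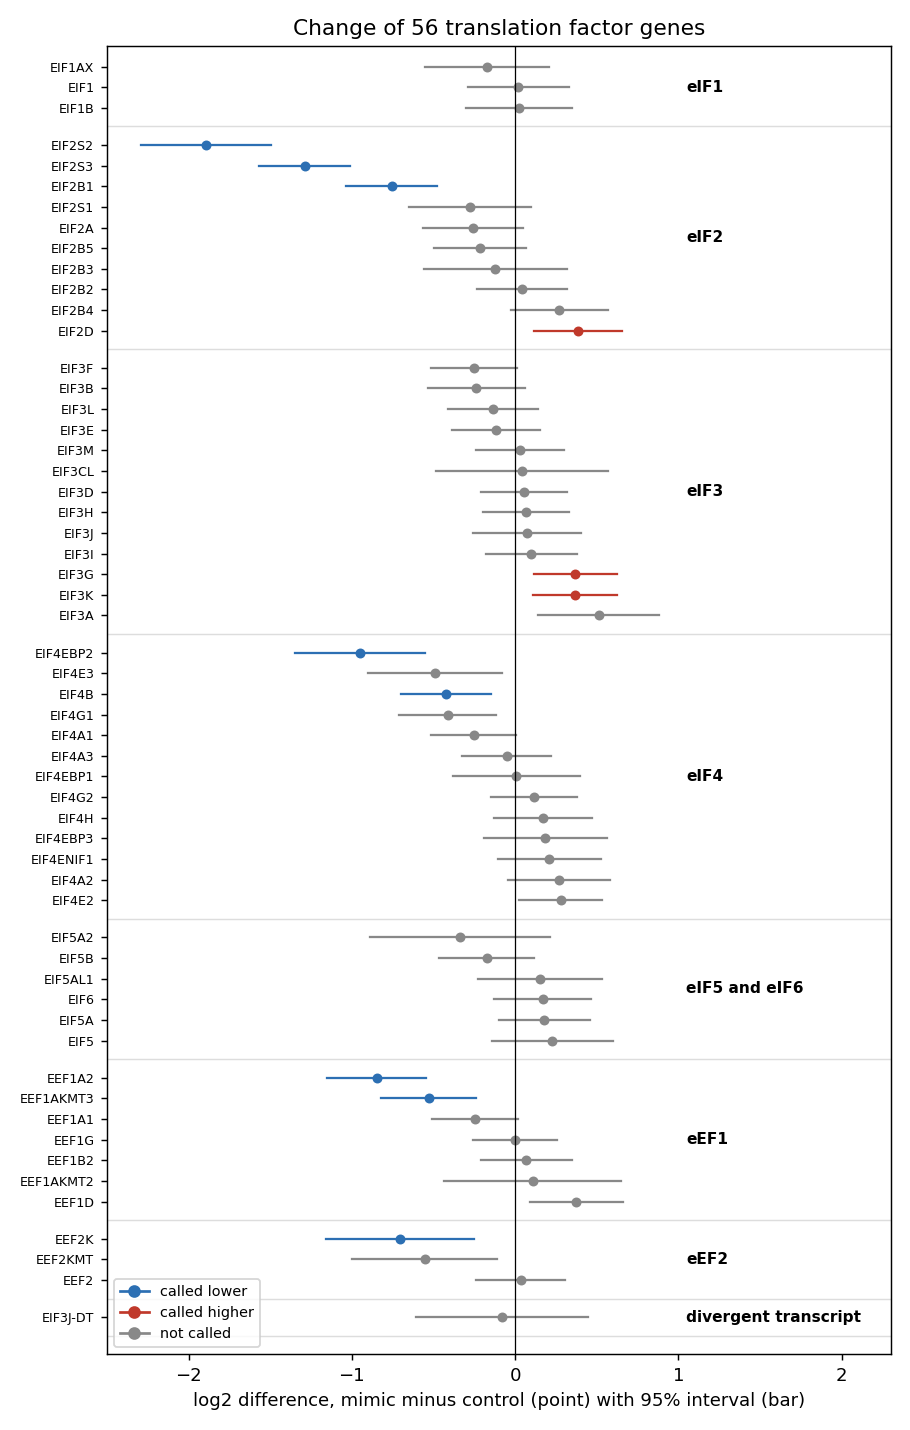
Change of each of the 56 tested members, as the log2 difference of mimic minus control (point) with its 95% interval (bar), grouped by factor. EIF2S2, EIF2S3, EIF4EBP2, EEF1A2 and EIF2B1 lie farthest left, at -1.89, -1.29, -0.95, -0.85 and -0.76, while no member exceeds 0.51 on the right.

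The 8 that fell were EIF2S2, EIF2S3, EIF2B1, EIF4EBP2, EIF4B, EEF1A2, EEF1AKMT3 and EEF2K, and the 3 that rose were EIF2D, EIF3G and EIF3K. EIF2S3, EIF2B1, EIF4EBP2 and EEF1A2 were called under all 20 alternatives. EIF2S2 passed the filter through the control arrays alone. It was called wherever measured but gave no value with detection on all 6 arrays, so that alternative could not count against it. All 3 rises lost their calls when any 1 array was left out, and the falls numbered 5 without control replicate 1. With array medians set equal the calls were 0 higher and 7 lower, and with cyclic loess 0 higher and 9 lower.

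Among the 3 subunits of eIF2, the beta and gamma subunits fell and the alpha subunit did not pass the test. EIF2S2 encodes eIF2 beta, which binds eIF5 and eIF2B. Its level, on the normalized log2 scale used throughout, was 7.17, 7.62 and 7.18 on control arrays 1 to 3 and 5.24, 5.42 and 5.65 on mimic arrays 1 to 3. All mimic arrays lay well below all control arrays, and the probe was detected on only 1 of the 3 mimic arrays, so it met the detection filter through the control group alone, where it was high. The measured change was -1.89 ± 0.17 (SE; limma adjusted p = 0.00034). On this background-corrected scale the fall was at least 3.45-fold with the undetected arrays set to the lowest detected signal of their array. That bound does not hold under other background settings. Before any correction its signal was 264.7 to 300.8 on control arrays and 142.0 to 163.5 on mimic arrays, close to the array medians, and the change was -0.83 when the background was left uncorrected and -1.08 under normexp.

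EIF2S3 encodes eIF2 gamma, the subunit that binds GTP and the initiator tRNA. Its level was 10.05, 9.96 and 10.03 on control arrays and 8.65, 8.86 and 8.67 on mimic arrays. The groups were separated by more than 1 log2 unit, and the probe was detected on all 6 arrays. EIF2S3 fell 2.44-fold (-1.29 ± 0.12, SE; limma adjusted p = 0.000379). The change lay between -1.35 and -1.08 over the 20 alternatives.

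EIF2S1 encodes eIF2 alpha, the subunit phosphorylated in the integrated stress response. Its level was 8.86, 9.17 and 9.21 on control arrays and 8.66, 9.07 and 8.70 on mimic arrays, so the groups overlapped. The change was -0.27, with a 95% interval from -0.65 to 0.10 (limma adjusted p = 0.267). Within each array, the log2 ratio of EIF2S2 to EIF2S1 changed by -1.62 and that of EIF2S3 to EIF2S1 by -1.01. With the background left uncorrected these changes were -0.61 and -0.87. On the corrected scale the groups did not overlap (exact permutation p = 0.1 each, two-sided, the smallest that 3 against 3 arrays allow). Each pair sets a called gene over one not called and was chosen after the values were seen. The lack of overlap therefore adds no separate support.

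Of the 5 subunits of eIF2B, the alpha subunit fell and the other 4 did not pass. EIF2B1 encodes eIF2B alpha, a regulatory subunit that senses phosphorylated eIF2. Its level was 9.91, 10.12 and 9.92 on control arrays and 9.15, 9.28 and 9.25 on mimic arrays, with no overlap. It fell 1.69-fold (-0.76 ± 0.12, SE; limma adjusted p = 0.00369).

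The other regulatory subunits were EIF2B2 (beta), which changed by 0.04 with an interval from -0.23 to 0.32, and EIF2B4 (delta). EIF2B4 gave 11.07, 11.36 and 11.08 on control arrays and 11.38, 11.46 and 11.49 on mimic arrays, all mimic arrays just above the highest control array (0.27, limma adjusted p = 0.174). The catalytic subunits were EIF2B3 (gamma), at -0.12 with overlapping groups, and EIF2B5 (epsilon), at -0.22 with an interval from -0.50 to 0.06 and all mimic arrays below. The within-array ratio of EIF2B1 to each of the other 4 subunits changed by -0.54 (EIF2B5) to -1.03 (EIF2B4), with no overlap in any. In all, 12 such ratios were computed, for pairs chosen after the values were seen, and all had an exact p of 0.1 and an adjusted p of 0.1.

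Other carriers of initiator tRNA are EIF2A and EIF2D, which despite their names are not subunits of eIF2. EIF2D, which also takes part in ribosome recycling, was at 9.29, 9.45 and 9.31 on control arrays and 9.79, 9.73 and 9.69 on mimic arrays. It rose by 0.39 ± 0.12 (SE; limma adjusted p = 0.046), with an adjusted p of 0.0547 to 0.14 when 1 array was left out. EIF2A changed by -0.26 (adjusted p = 0.202), and its groups overlapped.

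**Figure D2:**
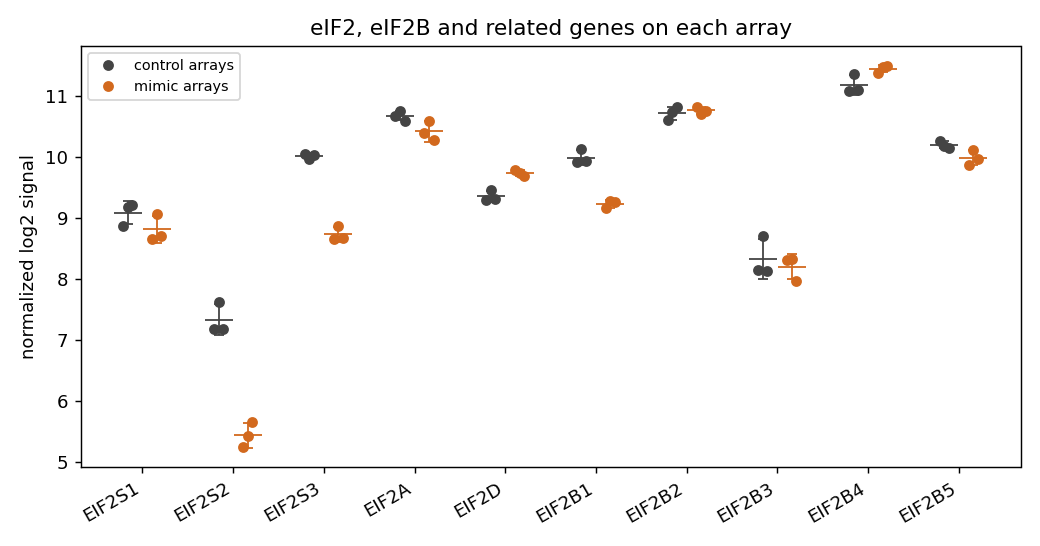
Normalized log2 signal of the genes of eIF2 and eIF2B and of EIF2A and EIF2D on each array, control arrays in grey and mimic arrays in orange, with the group mean (dash) and SD (bar), n = 3. EIF2S2 drops from a mean of 7.33 to 5.43, EIF2S3 from 10.01 to 8.72 and EIF2B1 from 9.99 to 9.23, while EIF2S1, EIF2B2 and EIF2B3 overlap.

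The eIF1 genes did not pass the test. EIF1, which guards start codon choice, changed by 0.02 with an interval from -0.29 to 0.33, and its relative EIF1B by 0.02. EIF1AX, the eIF1A gene, changed by -0.17 (limma adjusted p = 0.501), and all 3 genes had overlapping groups. Of the late-acting factors, EIF5, the GTPase activator of eIF2, changed by 0.23 with an interval from -0.14 to 0.60. EIF5B, the GTPase of subunit joining, changed by -0.17, and EIF6, which keeps the large subunit apart from the small one, by 0.17. EIF5A, the hypusine-bearing factor, was at 10.63, 10.67 and 10.75 on control and 10.84, 10.77 and 10.98 on mimic arrays, a change of 0.18 (adjusted p = 0.325). Its paralogue EIF5A2 changed by -0.34 with a wide interval from -0.89 to 0.21. EIF5AL1, a near copy of EIF5A whose probe may share its signal, changed by 0.15 and was detected on 2 control arrays and 1 mimic array.

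Of the 13 tested genes of the scaffold factor eIF3, 2 were higher, none was lower and 11 did not pass. That is a called share of 15.4%, beside 26.4% of all genes. The median change of the eIF3 genes was 0.05, and changes ran from -0.25 (EIF3F) to 0.51 (EIF3A). EIF3G, an RNA-binding subunit, was at 11.03, 11.07 and 11.08 on control arrays and 11.40, 11.43 and 11.46 on mimic arrays, a tight and complete separation. It rose by 0.37 ± 0.11 (SE; limma adjusted p = 0.0455). EIF3K, a small subunit that budding yeast lacks, was at 11.70, 11.65 and 11.63 on control arrays and 12.05, 12.05 and 11.99 on mimic arrays. It also rose by 0.37 ± 0.11 (adjusted p = 0.0461), and both adjusted p-values lay between 0.0695 and 0.133 when 1 array was left out.

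EIF3A, the largest subunit and a scaffold of the complex, had the greatest positive change of any member but missed the threshold. Its level was 9.32, 9.21 and 9.07 on control arrays and 9.59, 10.02 and 9.53 on mimic arrays, all mimic arrays above, with a change of 0.51, an interval from 0.14 to 0.88 and an adjusted p of 0.0526. It was called with 6 of the 20 alternatives. EIF3F, a subunit with an MPN domain, was at 12.46, 12.44 and 12.36 on control and 12.12, 12.24 and 12.14 on mimic arrays, a change of -0.25 (adjusted p = 0.154). EIF3E was lower on every mimic array by a smaller margin, with a change of -0.12 (adjusted p = 0.521). EIF3B, a scaffold subunit, changed by -0.24 and EIF3L by -0.13, with overlapping groups. The remaining EIF3D, EIF3H, EIF3I, EIF3J, EIF3M and EIF3CL changed by 0.03 to 0.10. EIF3CL and EIF3C are near-identical genes, the probe annotated to EIF3C was detected on 2 control arrays and did not pass, and the 2 cannot be told apart with certainty here.

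The 13 tested eIF4 genes had a median change of 0.01, and 2 of them fell while the other 11 did not pass. Their called share was 15.4%, beside 26.4% of all genes. The larger fall was that of EIF4EBP2, an eIF4E-binding protein that represses cap-dependent initiation. Its level was 8.48, 8.39 and 8.70 on control arrays and 7.56, 7.29 and 7.87 on mimic arrays, with no overlap. It fell 1.93-fold (-0.95 ± 0.17, SE; limma adjusted p = 0.00622). Its relatives EIF4EBP1 (0.01, interval -0.38 to 0.40) and EIF4EBP3 (0.19, interval -0.19 to 0.56) did not pass. EIF4ENIF1, which carries eIF4E into the nucleus, changed by 0.21. The within-array ratio of EIF4EBP2 to EIF4EBP1 changed by -0.96 and that to EIF4EBP3 by -1.14.

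EIF4B, which stimulates the helicase eIF4A, was at 12.16, 12.31 and 12.31 on control arrays and 11.83, 11.93 and 11.76 on mimic arrays. It fell by 0.42 on the log2 scale (SE 0.12; limma adjusted p = 0.0372), and kept its call only where mimic replicate 2 was the array dropped (adjusted p up to 0.103 otherwise). EIF4H, which has the same activity, changed by 0.17 with overlapping groups. The helicase genes EIF4A1 (-0.25), EIF4A2 (0.27) and EIF4A3, a subunit of the exon junction complex (-0.05), did not pass.

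The scaffold EIF4G1 came just short of the threshold, at 11.13, 11.21 and 11.15 on control arrays and 10.77, 10.90 and 10.58 on mimic arrays. All mimic arrays lay below, with a change of -0.41, an interval from -0.71 to -0.12 and a limma adjusted p of 0.0508, and it was called with 9 of 20 alternatives. EIF4G2, a relative that lacks the eIF4E-binding site, changed by 0.12 with an interval from -0.15 to 0.38. EIF4E2, a cap-binding repressor, was at 11.15, 11.21 and 11.20 on control and 11.46, 11.46 and 11.48 on mimic arrays, a change of 0.28 (adjusted p = 0.106). EIF4E3 changed by -0.49 (adjusted p = 0.0857). EIF4E itself has 5 probes on the array, none detected on any of the 6 arrays, so its level was not measurable here. EIF4E1B, EIF1AD, EIF1AY and EEF1AKMT1 did not pass the filter either, and EIF3J-DT, a noncoding RNA that met the naming rule but is no factor, changed by -0.08.

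**Figure D3:**
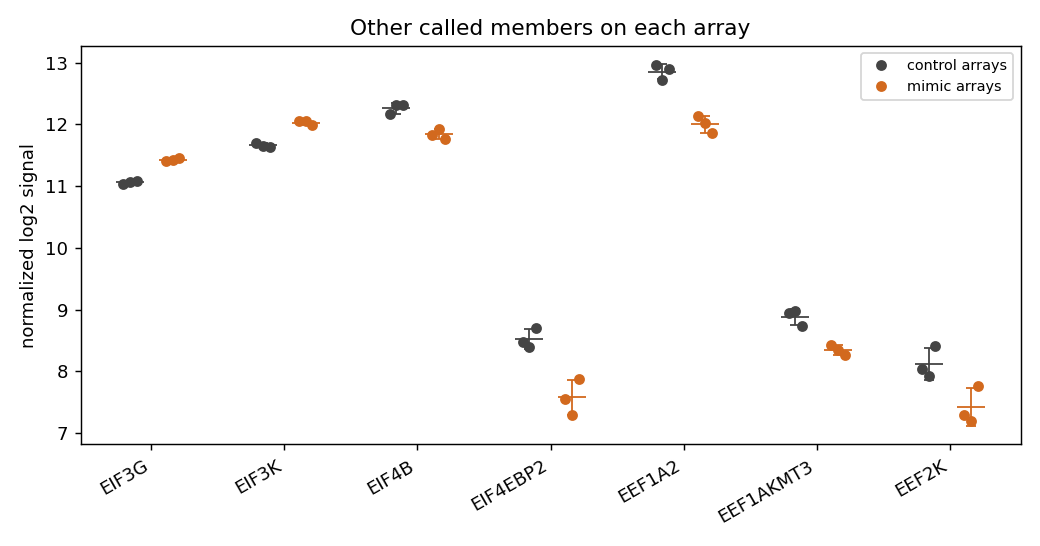
Normalized log2 signal on each array of the 7 called members outside eIF2, control arrays in grey and mimic arrays in orange, with the group mean (dash) and SD (bar), n = 3. EIF4EBP2 drops from a mean of 8.53 to 7.58 and EEF1A2 falls by 0.85 from a mean of 12.85, and the groups of none of the 7 genes overlap.

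In elongation, 2 of the 7 tested eEF1 genes fell and none rose, a called share of 28.6% beside 26.4% of all genes. EEF1A2, the eEF1A form of muscle and neurons, was at 12.95, 12.71 and 12.89 on control arrays and 12.13, 12.02 and 11.86 on mimic arrays, with no overlap. It fell 1.80-fold (-0.85 ± 0.13, SE; limma adjusted p = 0.00319). EEF1AKMT3, a lysine methyltransferase of eEF1A, was at 8.94, 8.97 and 8.73 on control and 8.43, 8.35 and 8.27 on mimic arrays. It fell by 0.53 on the log2 scale (adjusted p = 0.0191), and lost its call without control replicate 1 or 2 or mimic replicate 3 (highest adjusted p 0.07). Another methyltransferase gene, EEF1AKMT2, changed by 0.11 with overlapping groups.

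EEF1A1, the ubiquitous eEF1A, has one of the brightest probes on the array, with raw signals of 34463, 33630 and 36107 on control arrays and 30407, 29308 and 29508 on mimic arrays. All mimic arrays lay below, but the normalized change was -0.25 and did not pass (interval -0.51 to 0.02, limma adjusted p = 0.16), and it was -0.06 with array medians set equal. Of the eEF1B subunits, which exchange GDP for GTP on eEF1A, EEF1B2 changed by 0.07 and EEF1G had nearly equal means, both with overlapping groups. EEF1D was at 13.06, 13.16 and 12.90 on control and 13.34, 13.42 and 13.48 on mimic arrays, all above, with a change of 0.37 (adjusted p = 0.0627) that was called with 7 of 20 alternatives.

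EEF2, the translocase, changed by 0.03 with an interval from -0.24 to 0.31, whereas the gene of its kinase fell. EEF2K, which inactivates eEF2 by phosphorylation, was at 8.04, 7.92 and 8.42 on control arrays and 7.30, 7.19 and 7.77 on mimic arrays. It fell 1.63-fold (-0.71 ± 0.20, SE; limma adjusted p = 0.0348), but was not called if control replicate 1, control replicate 3, mimic replicate 1 or mimic replicate 2 was dropped (adjusted p up to 0.102). Its change was -0.46 when the background was left uncorrected. EEF2KMT, a lysine methyltransferase of eEF2, was at 7.37, 7.79 and 7.47 on control and 6.64, 7.28 and 7.06 on mimic arrays, a change of -0.55 (adjusted p = 0.0743).

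For 5 of the 14 members with more than 1 passing probe, the brightest probe was not called and a dimmer one was, in a fit over all passing probes. EEF1A1 has 3 bright probes at -0.08 to -0.25 and a dim one, at 8.15, 8.27 and 8.29 on control and 6.88, 7.18 and 6.75 on mimic arrays, that fell by 1.30 on the log2 scale (limma adjusted p = 0.000744). EIF4A1 likewise has a dimmer probe that fell by 0.99 (adjusted p = 0.00177), from 10.78 to 10.99 on control arrays to 9.74 to 10.05 on mimic arrays. EEF1B2 differed the other way: its 2 brightest probes gave 0.07 and 0.13 and its next 2 rose by 0.78 and 0.80 (adjusted p = 0.00522 and 0.00452).

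The dimmer probes of EEF2KMT fell by 0.86 and 0.92 on the log2 scale (limma adjusted p = 0.0196 and 0.0204), and the second probe of EIF4G1 fell by 0.47 (adjusted p = 0.0477), in the direction of their brightest probes. Probes of the other 9 genes, such as EIF3B, EIF4G2 and EEF1D, shared their call. Which transcripts each probe binds was not examined here. The members called by their brightest probe had only that 1 passing probe, so no second probe bears on them.

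**Figure D4:**
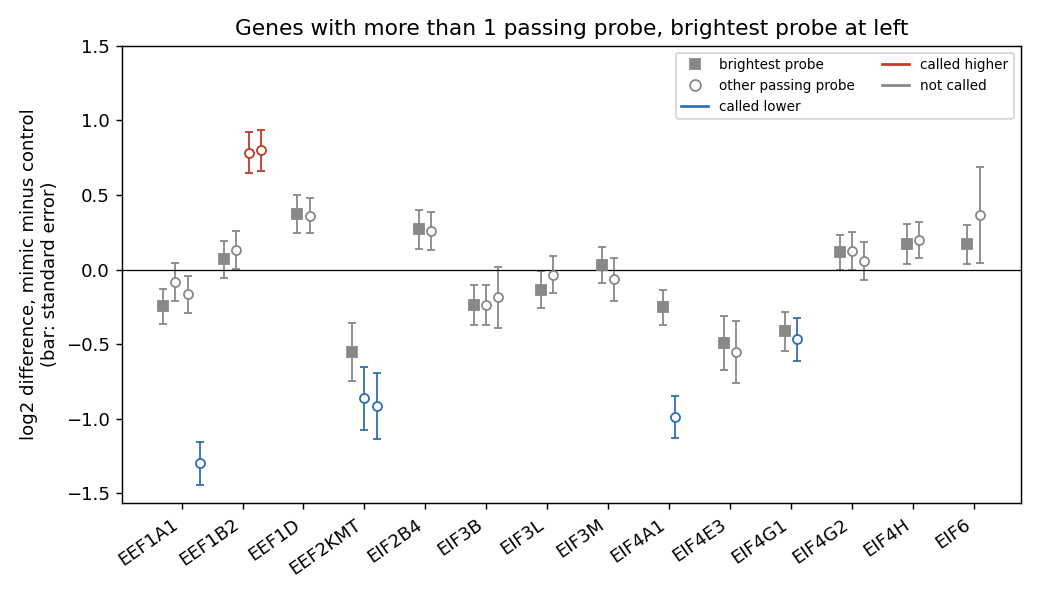
Log2 difference of mimic minus control with its standard error for the 35 passing probes of the 14 members with more than 1, the brightest probe (filled square) at the left of each gene. The dim probes of EEF1A1 (-1.30) and EIF4A1 (-0.99) and the 2 dimmer probes of EEF1B2 (0.78 and 0.80) stand apart from the brightest probe of their gene.

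Many translation factor mRNAs belong to the terminal oligopyrimidine (TOP) class, which starts with a C and a run of pyrimidines and whose translation mTORC1 controls through LARP1. Promoter sequences from RefSeq (GRCh38.p14) were found for 44 of the 56 tested members. None was found for the called members EIF2S2, EEF1A2, EEF1AKMT3 and EIF3G, so the counts below leave these out. The definition used here was chosen after the members' start sequences were seen and a looser one had been tried, so the shares are a description only. A C at the annotated start followed by at least 4 bases that are each C or T, on the gene's strand, was present in 12 of the 44 (27.3%), against 5.14% of the 27305 genes with a promoter sequence. The looser definition, a C and 4 such bases anywhere from 5 before to 10 after the start, was met by 47.7% of members and 25.2% of genes. Both shares of genes cover every gene with a promoter sequence, detected here or not, whereas the members were all tested. The sets are therefore unlike, and no enrichment is read from them. The 12 members with the run changed by -1.29 to 0.39, with a median of 0.03, 2 lower, 2 higher and 8 not passing. The 32 without it changed by -0.95 to 0.28, with a median of 0.01, 3 lower, none higher and 29 not passing. Of all genes tested, 26.4% were called. Of the 12, 6 are shown, 20 bases before and 20 from the annotated start, with the run in capitals, to set the 2 that fell and the 2 that rose beside 2 that did not pass.
EIF2S3 (fell, chrX:24054936-24054975, plus strand): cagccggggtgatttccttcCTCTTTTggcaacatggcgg
EIF4B (fell, chr12:53006436-53006475, plus strand): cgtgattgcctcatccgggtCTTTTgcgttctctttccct
EIF2D (rose, chr1:206612446-206612485, minus strand): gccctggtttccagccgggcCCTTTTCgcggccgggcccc
EIF3K (rose, chr19:38619168-38619207, plus strand): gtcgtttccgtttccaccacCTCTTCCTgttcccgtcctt
EEF1A1 (did not pass, chr6:73521013-73521052, minus strand): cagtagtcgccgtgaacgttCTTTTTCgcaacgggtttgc
EEF2 (did not pass, chr19:3985444-3985483, minus strand): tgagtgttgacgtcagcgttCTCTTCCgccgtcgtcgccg
Of the 6 shown, EIF2S3, EIF3K and EEF2 share the opening letters CTCTT. The first fell, the second rose, with a call lost when any 1 array was left out, and the third changed by 0.03. EIF2A and EIF3D, not shown, open with the same letters and did not pass (-0.26 and 0.05). Whether the run bears on the changes was not tested. A run at an annotated start is a description of the sequence, not of how the transcript is controlled.

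Among genes of the stress pathway that acts on eIF2, 3 of 11 tested rose, none fell and 8 did not pass, a called share of 27.3% beside 26.4% of all genes. DDIT3, which encodes the stress transcription factor CHOP, was at 7.74, 7.46 and 7.58 on control arrays and 9.62, 9.11 and 9.77 on mimic arrays (limma adjusted p = 0.000447). EIF2AK2, the eIF2 kinase PKR, rose by 0.56 ± 0.13 (SE; adjusted p = 0.0145), and DNAJC3, an inhibitor of the eIF2 kinases PKR and PERK, rose by 0.59 (adjusted p = 0.0328). ATF4, whose translation rises when eIF2 is phosphorylated, changed by -0.01 at the mRNA level, and ATF3 by -0.49 (adjusted p = 0.0906). DNAJC3 was not called when the background was left uncorrected (0.26). With 1 array left out, it kept its call only without control replicate 2 (limma adjusted p up to 0.0851 otherwise). ATF4 is named outside the rule for list genes, after its values were seen.

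Of 17 tested genes that link mTORC1 and the MNK kinases to eIF4E and eEF2K, 2 fell, 1 rose and 14 did not pass. Their called share was 17.6%, beside 26.4% of all genes. MKNK2, a kinase of eIF4E, was at 9.35, 9.42 and 9.34 on mimic arrays against a control mean of 10.08 ± 0.0653 (SD, n = 3), and fell by 0.71 on the log2 scale (limma adjusted p = 0.00356). RPS6KB1, the S6 kinase that phosphorylates eIF4B and eEF2K, fell by 0.70 (adjusted p = 0.00937). DEPTOR, an inhibitor of mTOR, was not detected on the control arrays but was on each mimic array. There it was higher by a factor of at least 1.35 on the background-corrected scale only (limma adjusted p = 0.0401). It thus met the detection filter through the mimic group alone, where it was high. That call ended when the background was left uncorrected (0.23) or when any control array was dropped. DDIT4, another inhibitor of mTORC1, changed by 1.43 but varied among arrays of a group, from 8.87 to 10.44 in control and from 10.22 to 11.80 in mimic, and did not pass (adjusted p = 0.0643). The arrays of each number differed by a like amount, and DDIT4 was called under 8 of 20 alternatives, the replicate number as a block among them.

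Of 14 tested poly(A)-binding and other initiation helper genes, 2 rose, 1 fell and 11 did not pass. Their called share was 21.4%, beside 26.4% of all genes. PABPC1, the main cytoplasmic poly(A)-binding protein, rose by 0.48 ± 0.12 (SE; limma adjusted p = 0.023), from 13.80, 13.87 and 13.67 on control arrays to 14.34, 14.20 and 14.23 on mimic arrays. GIGYF1, a partner of EIF4E2, rose by 0.42 (adjusted p = 0.0445), and PAIP1, which binds PABPC1 and eIF3, fell by 0.45 (adjusted p = 0.04998). With the background left uncorrected GIGYF1 and PAIP1 changed by 0.16 and -0.16 and were not called. With 1 array left out, PABPC1 stayed called only where replicate 2 of either group was dropped (limma adjusted p up to 0.0866 otherwise). In those fits GIGYF1 stayed called only where mimic replicate 2 was dropped (up to 0.144), and PAIP1 only where mimic replicate 3 was dropped (up to 0.154).

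**Figure D5:**
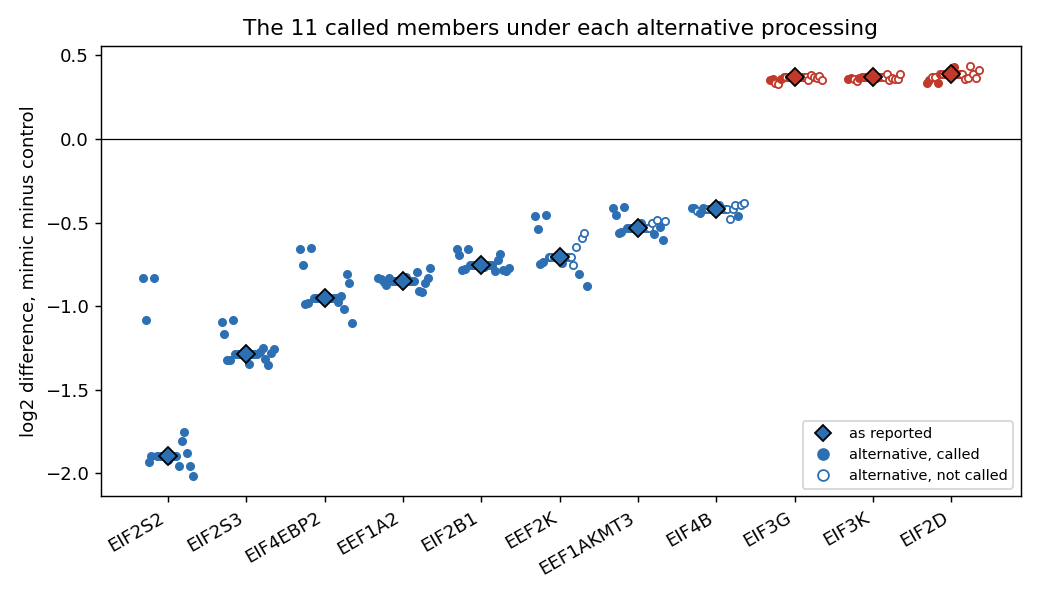
Log2 difference of mimic minus control for the 11 called members as reported (diamond) and under each of the 20 alternatives (circles, filled where called). EIF2S2, EIF2S3, EIF4EBP2, EEF1A2 and EIF2B1 are filled throughout, and no circle changes side of 0. EIF2S2 gave no value with detection on all 6 arrays.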

How the data were processed

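RNA was turned into biotin-labelled cRNA and hybridised to Illumina arrays, per the labels' protocols. The authors deposited a table of unnormalized signal intensity for 47323 probes. Each deposited intensity comes with its detection p-value. How the scanner corrected background, and the slide of each array, is not stated in the labels or headers. A second deposited table holds values on the log2 scale, with nearly 1 distribution in all columns, and served as an alternative. Probes were named through GEO's platform annotation and the RefSeq table of GRCh38.p14. From the intensities, background was removed by limma 3.58.1 (nec, R 4.3.3; offset 16, negative controls inferred from the detection p-values), followed by quantile normalization and log2. Probes detected (p under 0.05) on 3 or more arrays were kept, and a gene took its brightest kept probe, which left 14775 rows, 10734 of them genes. Groups were compared with lmFit and eBayes without covariates, with Benjamini-Hochberg adjustment over all rows. The fit was also run on simulated data, with independent noise and a smaller share of changed rows than was called here. That run checks the code only, not the results above. All tested members could be named, as could up to 4 genes of each pathway list by adjusted p, and ATF4 was added after its values were seen. The ratio pairs and the start-run definition were also chosen after values and sequences were seen. Members and lists were chosen with earlier results of these data known. A match of the microRNA's sequence to transcripts was not made here. The number of arrays limits the precision.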

Additional observations from a re-analysis of the deposited data

How the results depend on the processing

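Over 20 alternatives no called member changed direction, 5 of the 11 kept their calls wherever measured, and 10 of the 45 others, 4 with positive and 6 with negative changes, were called under at least 1. The 3 rises and 8 falls became 6 and 12 without background correction, 5 and 10 under normexp (offset 50), 6 and 13 with the deposited log2 values, 6 and 14 with eBayes with trend and robust, 5 and 11 with array weights, 5 and 12 with the mean of a gene's probes, and 5 and 9 with detection on all 6 arrays, where EIF2S2 gave no value. They became 0 and 7 with array medians set equal, 0 and 9 with cyclic loess, 0 and 6 with detection on at least 1 array or no filter, and 0 and 5 at an adjusted p under 0.01 or with treat above 1.2-fold. Leaving out each array in turn gave 0 to 0 rises and 5 to 9 falls. The share of all genes called moved too, from 26.4% to 32.6% without background correction, 30.9% under normexp, 24.5% with medians equal, 26.3% with cyclic loess, 32.5% with the deposited values, 32.3% with detection on all 6 arrays, 16.9% on at least 1, 10.8% with no filter, 26.6% with the mean of probes, 32.4% with trend and robust, and 35.8% with array weights. The members' shares there were 32.1%, 26.8%, 12.5%, 16.1%, 33.9%, 26.4%, 10.7%, 10.7%, 30.4%, 35.7% and 28.6%. The median change of members stayed between -0.03 and 0.02. Over all genes, 1358 rises and 1475 falls became 606 and 824 at an adjusted p under 0.01, 554 and 791 with treat, and 809 to 1335 and 1002 to 1530 with 1 array left out. With the replicate number as a block there were 0 rises and 8 falls among the members, EIF4B no longer called and EEF2KMT called. Deviations of same-numbered arrays correlated at 0.0243, 0.0811 and 0.103 over all rows and at 0.206, 0.182 and 0.382 over the members, and 4 of 6 arrays correlated best with their own number, and by the correlations over all rows the numbers were not taken to pair the samples. Of the 12 within-array ratios, added alternatives without background correction turned the sign of 1, EIF2S2 to EIF2S3 (from -0.60 to 0.26), and kept that of the other 11. Signs of members that no fit called were not compared. The cause of these differences was not tested.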

Other observations

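The called shares of the termination and recycling, modification and mitochondrial lists were 20%, 30% and 22.2%, beside 26.4% of all genes. Of 5 tested termination and recycling genes, GSPT2, a relative of the release factor gene GSPT1, fell by 0.56 on the log2 scale (SE 0.12; limma adjusted p = 0.0128), from 9.45, 9.66 and 9.47 on control arrays to 8.92, 8.95 and 9.02 on mimic arrays. Its adjusted p was 0.0501 without mimic replicate 1. GSPT1 changed by 0.26, PELO, a ribosome rescue factor, by 0.27 and ABCE1, the recycling ATPase, by -0.09, and none of these passed.

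Of 10 tested genes that modify eIF5A and eEF2 or act in selenocysteine insertion, 2 rose and 1 fell. DPH7 and DNAJC24, both of the pathway that makes the diphthamide of eEF2, moved in opposite directions, DPH7 by 0.69 ± 0.13 (SE; limma adjusted p = 0.00721) and DNAJC24 by -0.53 ± 0.15 (adjusted p = 0.0379). Without background correction DPH7 changed by 0.25 and was called, and DNAJC24 changed by -0.25 and was not. With 1 array left out, DNAJC24 kept its call only without mimic replicate 2 (limma adjusted p up to 0.122 otherwise). SECISBP2, which binds the selenocysteine insertion element, rose by 0.66 (adjusted p = 0.0125). DPH2 changed by -0.43 (adjusted p = 0.0636).

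Of 9 tested mitochondrial translation factors, 1 rose and 1 fell. MTRF1L, a mitochondrial release factor, fell by 0.78 on the log2 scale (SE 0.15; limma adjusted p = 0.0066). Taken as the mean of its passing probes, MTRF1L changed by less, at -0.41 (limma adjusted p = 0.0412). GUF1, a GTPase related to bacterial LepA, rose by 0.65 (SE 0.15; limma adjusted p = 0.0148). GUF1 lost its call without control replicate 1 or 3 (highest adjusted p 0.0515). The initiation factor genes MTIF2 (0.30) and MTIF3 (0.28) did not pass.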
